A study of Mus musculus with 9 samples.

Results

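The genes described here mark or act on testicular macrophages, the main immune cells of the testis interstitium. They are 10 of 32035 genes with transcripts in the deposited files: *Adgre1*, *Cd68*, *Cd163*, *Mrc1*, *Csf1r*, *Csf1*, *C1qa*, *C1qb*, *C1qc* and *Cx3cr1*. They were chosen by name from textbook knowledge of the lineage, but with earlier results of these data known. RNA was sequenced from whole-testis samples of male mice, 3 samples being wild-type (WT), 3 *Kpna6*ΔIBB/ΔIBB and 3 *Kpna6*-/-, all at 15 weeks of age and on the C57Bl6/N background. *Kpna6* encodes the nuclear import adaptor importin α7. The *Kpna6*ΔIBB/ΔIBB line carries a deletion of exon 2 that leaves a truncated protein without the importin β binding domain. The *Kpna6*-/- line carries a gene trap in intron 1, but a testis-specific first exon downstream of the trap still gives full-length protein in germ cells, so that line is no complete knockout of the testis. Neither the labels nor the methods state that replicates came from separate animals, and p-values measure the spread between these samples.

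Macrophages of the testis lie among the Leydig cells and on the wall of the seminiferous tubules. They depend on the growth factor CSF1, which tissue cells secrete and which acts through the receptor CSF1R on the macrophage. They clear dying cells and debris, make components of complement and are known for holding inflammatory reactions low around the germ cells. Because whole organs were measured, fewer cells of a type and less RNA per cell cannot be told apart, and neither can more macrophages from fewer germ cells around them.

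Every library held between 24859751 and 31484692 estimated counts on genes. *Kpna6* itself, on chromosome 4 (GRCm38, 129643980 to 129672767), was at 201, 325 and 334 normalised CPM in WT and at 81.2, 85.3 and 81.8 in *Kpna6*ΔIBB/ΔIBB testes (log2 fold change -1.79, SE 0.15, adjusted p = 1.94e-05). The *Kpna6*-/- testes were at 247, 249 and 262, which overlapped WT, and the transcripts that start downstream of the trap keep this level from checking the labels of that line. CPM are counts scaled to a common library size by TMM over all 9 libraries, and fold changes and adjusted p-values here and below come from edgeR's quasi-likelihood test with Benjamini-Hochberg adjustment over all genes tested. Replicate 3 of *Kpna6*ΔIBB/ΔIBB stood apart for *Crisp1* and *Adam7*, genes of the epididymis, the duct next to the testis. *Lcn5*, another gene of the epididymis, was at 0 in all libraries. *Crisp1*, an epididymal secretory protein, was at 77 TPM there and at 0.0765 to 4.23 TPM in the other 8 libraries, and *Adam7* was at 6.99 against at most 0.169 TPM.

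All 10 macrophage genes were detected in each of the 9 libraries, with 41 to 1826 counts per gene and library. Levels between genes were compared as TPM, which accounts for transcript length. *C1qb* had the highest mean over the 9 testes (17.4 TPM, range 13.6 to 24), followed by *C1qa* (12.3, range 8.47 to 16.7), *Mrc1* (11.2, range 8.64 to 15.4) and *C1qc* (10.6, range 7.01 to 13.5). These are the 3 chains of the recognition molecule of classical complement and the mannose receptor CD206. A lower tier held *Csf1r* (3.9), *Csf1* (3.41), *Cd68* (3.11), *Adgre1* (2.2), *Cx3cr1* (1.78) and *Cd163* (0.928 TPM). Ranges of neighbours in this order overlapped everywhere except between *C1qc* and *Csf1r*, whose highest value was 5.07 TPM. Within each of the 9 libraries, *C1qb* exceeded *C1qa* and *Cx3cr1* exceeded *Cd163*, whereas the other overlapping neighbours changed order between libraries. The least abundant of the 10, *Cd163*, exceeded 47.2% of all genes in mean TPM, and the most abundant exceeded 77.8%.

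The summed level of the 10 genes was 51.8, 54 and 65.9 TPM in WT testes, 79.8, 80.9 and 88.2 TPM in those of *Kpna6*ΔIBB/ΔIBB mice and 54.4, 59.6 and 67.9 TPM in those of *Kpna6*-/- mice, each from lowest to highest. All *Kpna6*ΔIBB/ΔIBB values lay above all others, while WT and *Kpna6*-/- overlapped. TPM are not scaled by TMM, and sums of TPM here and below carry a shift of all genes. In *Kpna6*ΔIBB/ΔIBB against WT testes the median log2 fold change of all genes was 0.106 on log2(TPM + 1) and 0.009 with TMM. The 3 C1q genes made up 49.6 ± 4.01 TPM (SD, n = 3) of the sum in *Kpna6*ΔIBB/ΔIBB, 34.4 ± 6.67 in WT and 37.1 ± 5.59 in *Kpna6*-/- testes.

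**Figure D1:**
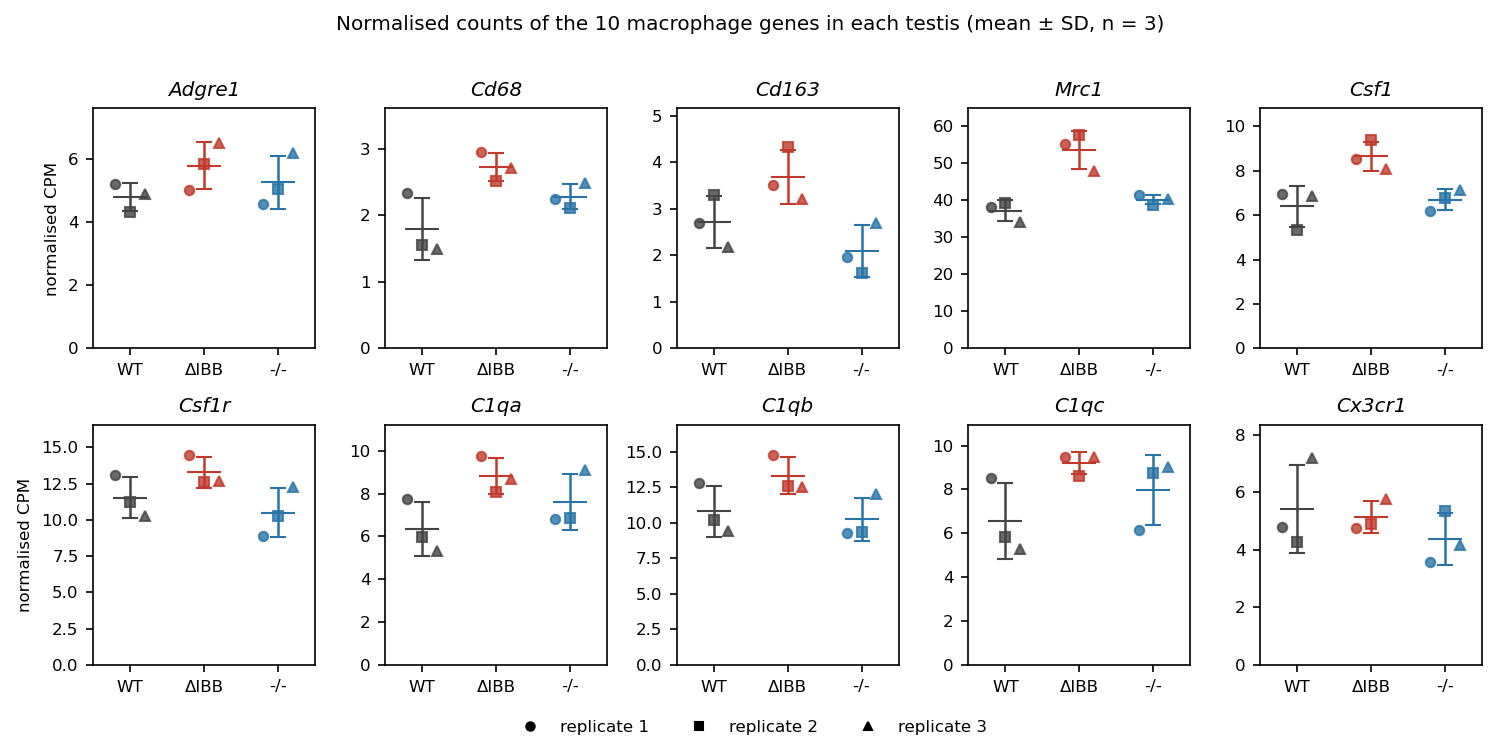
Normalised CPM of each macrophage gene (y axes from 0) in the 9 testes; symbols are the replicates of a group, and bars give mean ± SD (n = 3). *Mrc1* and *Csf1* lie higher in all 3 *Kpna6*ΔIBB/ΔIBB testes than in all 6 others, whereas *Adgre1* and *Cx3cr1* overlap across the groups.

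Upstream sequences are shown for 4 genes of different roles (a scavenging receptor, a lysosomal protein, a growth factor and a complement chain). *Mrc1* and *Csf1* were called higher in *Kpna6*ΔIBB/ΔIBB testes than in both other groups, *Cd68* than in WT alone and *C1qb* than in *Kpna6*-/- testes alone. *C1qc* and *Cd163*, each called in 1 of those comparisons, also had an entry and are not printed. The bases come from RefSeq (GRCm38.p6), up to 250 before the transcription start and outside any annotated exon, 5′ to 3′ on the strand of the gene. Capitals mark GAGGAA or its reverse complement TTCCTC, the core bound by the myeloid factor PU.1, and TGANTCA, the motif of AP-1 factors. Of the 10 genes 7 had an entry, and *Adgre1*, *Csf1r* and *C1qa* had none.
Mrc1, chr2:14229164-14229391, forward strand: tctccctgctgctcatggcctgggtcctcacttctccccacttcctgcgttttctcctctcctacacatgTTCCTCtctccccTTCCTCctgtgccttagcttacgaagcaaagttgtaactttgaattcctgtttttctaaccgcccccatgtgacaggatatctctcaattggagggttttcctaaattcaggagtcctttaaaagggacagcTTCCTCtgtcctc
Cd68, chr11:69666171-69666420, reverse strand: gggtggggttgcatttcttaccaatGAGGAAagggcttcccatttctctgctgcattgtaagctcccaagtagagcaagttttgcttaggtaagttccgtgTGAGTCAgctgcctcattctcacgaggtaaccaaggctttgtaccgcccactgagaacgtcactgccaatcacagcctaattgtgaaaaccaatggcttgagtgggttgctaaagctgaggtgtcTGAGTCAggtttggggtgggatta
Csf1, chr3:107760470-107760719, reverse strand: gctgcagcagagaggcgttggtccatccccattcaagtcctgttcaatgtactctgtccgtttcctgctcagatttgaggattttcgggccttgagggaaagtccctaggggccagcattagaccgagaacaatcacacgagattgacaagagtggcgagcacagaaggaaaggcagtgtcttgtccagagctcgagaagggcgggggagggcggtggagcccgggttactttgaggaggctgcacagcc
C1qb, chr4:136886201-136886450, reverse strand: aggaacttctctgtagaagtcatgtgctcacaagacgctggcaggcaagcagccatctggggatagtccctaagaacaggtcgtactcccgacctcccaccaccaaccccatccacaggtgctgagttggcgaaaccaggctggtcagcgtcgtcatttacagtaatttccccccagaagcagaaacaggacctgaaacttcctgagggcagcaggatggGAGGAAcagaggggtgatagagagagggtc
In the full 250 bases, GAGGAA on either strand was found 3 times for *Mrc1* and once each for *Cd68*, *C1qb* and *C1qc*, and in none of the windows of *Csf1*, *Cd163* and *Cx3cr1*. Of 32851 promoter windows of that length, 23.3% held it. TGANTCA was found 2 times upstream of *Cd68*, at no overlap with the other motif, and in 6.75% of all windows. A match of letters is a description and not a binding site.

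In *Kpna6*ΔIBB/ΔIBB against WT testes, 5 of the 10 genes rose and none fell. These were *Mrc1*, *Cd68*, *Csf1*, *C1qa* and *C1qc*, by 1.36- to 1.52-fold. Across all 18797 genes tested, 36.6% passed in either direction, and 17.7% were higher, which is the share to set beside 5 of 10. Since the 10 genes were chosen with earlier results of these data known, setting these shares side by side is a description. The median log2 fold change was 0.44 over the 10 genes and 0.009 over all genes. Log2 fold changes were above 0 for 9 of the 10 genes.

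*Mrc1*, an endocytic receptor for glycoproteins, showed the firmest change. It was at 38.2, 39.1 and 34 normalised CPM in WT and at 55, 57.4 and 47.7 in *Kpna6*ΔIBB/ΔIBB testes. The groups did not overlap, and the fold change was 1.44 (95% CI 1.28 to 1.63, adjusted p = 0.000408). It was called under each of the 15 alternative settings. Non-overlapping higher values were found for 5 of the 10 macrophage genes, the same 5 that were called, and for 25.3% of all genes. *Mrc1*-201, the protein-coding transcript, carried 90.7% of the gene's TPM and went from 8.35 ± 0.423 TPM in WT to 13.3 ± 1.49 in *Kpna6*ΔIBB/ΔIBB testes (SD, n = 3).

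*Cd68*, a lysosomal glycoprotein of phagocytes, was the least counted of the 5 genes. Its values were 2.33, 1.55 and 1.49 normalised CPM in WT and 2.95, 2.52 and 2.71 in *Kpna6*ΔIBB/ΔIBB testes. It was higher by 0.61 on the log2 scale (SE 0.20, adjusted p = 0.038), but DESeq2 gave an adjusted p of 0.0734 and leaving out any single library other than WT replicate 1 gave 0.062 to 0.132.

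*Adgre1*, which encodes the pan-macrophage surface protein F4/80, did not pass the test. It was at 5.19, 4.31 and 4.88 normalised CPM in WT and at 5.02, 5.82 and 6.51 in *Kpna6*ΔIBB/ΔIBB testes. The lowest *Kpna6*ΔIBB/ΔIBB value lay below the highest WT value, and the log2 fold change was 0.28 (95% CI -0.02 to 0.57, adjusted p = 0.129). *Cd163*, the scavenger receptor for haemoglobin bound to haptoglobin, was at 2.7, 3.29 and 2.18 in WT and 3.52, 4.34 and 3.21 normalised CPM in *Kpna6*ΔIBB/ΔIBB testes. Its log2 fold change of 0.44 (95% CI 0.03 to 0.85) had an adjusted p of 0.0881.

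Of the growth factor axis, the ligand was called and the receptor was not. *Csf1* was at 6.95, 5.34 and 6.88 normalised CPM in WT and at 8.5, 9.37 and 8.09 in *Kpna6*ΔIBB/ΔIBB testes. That was higher by 0.44 on the log2 scale (SE 0.12, adjusted p = 0.017) with no overlap, and the adjusted p was 0.065 without WT replicate 2 and 0.072 without *Kpna6*ΔIBB/ΔIBB replicate 2. *Csf1r* was at 13.1, 11.2 and 10.3 in WT and 14.5, 12.6 and 12.7 in *Kpna6*ΔIBB/ΔIBB testes, with a log2 fold change of 0.21 (95% CI -0.03 to 0.44, adjusted p = 0.15). WT replicate 1 lay inside the *Kpna6*ΔIBB/ΔIBB range, and without that library *Csf1r* was higher by 0.31 (adjusted p = 0.0413). Over its 6 annotated transcripts *Csf1r* shares 873 exon bases with *Hmgxb3* on the opposite strand, which had a mean of 12.1 TPM. Without strand information, reads of shared bases cannot be told apart. Whether these bases lie in the 2 *Csf1r* transcripts of the files was not checked. The other ligand of the receptor, *Il34*, named here after its values were seen, was at 1.95 to 4.18 TPM in WT and 2.74 to 4.34 TPM in *Kpna6*ΔIBB/ΔIBB testes (log2 fold change 0.40, adjusted p = 0.384).

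The 3 C1q chains, which assemble in equal numbers into 1 molecule, had log2 fold changes of 0.48 (SE 0.14) for *C1qa*, 0.30 (SE 0.12) for *C1qb* and 0.49 (SE 0.16) for *C1qc*. *C1qa* rose from 7.76, 5.96 and 5.31 normalised CPM in WT to 9.73, 8.08 and 8.68 in *Kpna6*ΔIBB/ΔIBB testes (adjusted p = 0.0225). *C1qc* rose from 8.53, 5.83 and 5.28 to 9.5, 8.62 and 9.5 (adjusted p = 0.032). *C1qb* was at 12.8, 10.2 and 9.39 in WT and 14.8, 12.6 and 12.5 in *Kpna6*ΔIBB/ΔIBB testes and missed the threshold (adjusted p = 0.0805). WT replicate 1 was the highest WT library for all 3 chains. Without it the adjusted p-values were 0.00355, 0.0112 and 0.00117 in the order A, B, C. In contrast, none of the chains was called without WT replicate 2 or 3, or without *Kpna6*ΔIBB/ΔIBB replicate 1.

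*Cx3cr1*, the receptor for fractalkine on monocytes and macrophages, was at 4.79, 4.28 and 7.17 normalised CPM in WT and at 4.75, 4.88 and 5.76 in *Kpna6*ΔIBB/ΔIBB testes. The log2 fold change was -0.07 (95% CI -0.47 to 0.34, adjusted p = 0.805), and its sign was positive without WT replicate 3 and on TPM or library-size scales. *Cx3cr1* shares 78 exon bases with the antisense gene Gm33858.

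Which genes were called depended on single libraries. With 1 library left out at a time, between 2 (*Mrc1* with *Csf1*, *C1qa* or *Cd163*) and 7 of the 10 were called, and 7 only without WT replicate 1. Without *Kpna6*ΔIBB/ΔIBB replicate 3, the library with the high *Crisp1* and *Adam7* values, *Mrc1*, *Csf1* and *C1qa* were called and the median log2 fold change was 0.48. Scaling by library size alone moved the median log2 fold change of all genes from 0.009 to 0.107 and the share of higher calls from 3327 of 6874 to 5416 of 7742, and 9 of the 10 genes were then called, with a median of 0.54. Length-scaled TPM counts gave 3 (*Mrc1*, *Csf1*, *C1qa*).

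None of the 10 genes differed by edgeR's test between *Kpna6*-/- and WT testes. None had an unadjusted p below 0.05, DESeq2 called 0, and so did each other alternative. Over all 18681 genes tested 1.6% passed and 0.889% were higher, while 14.9% had an unadjusted p below 0.05. The median log2 fold change of the 10 genes was 0.09, with 6 above 0 and 4 below.

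**Figure D2:**
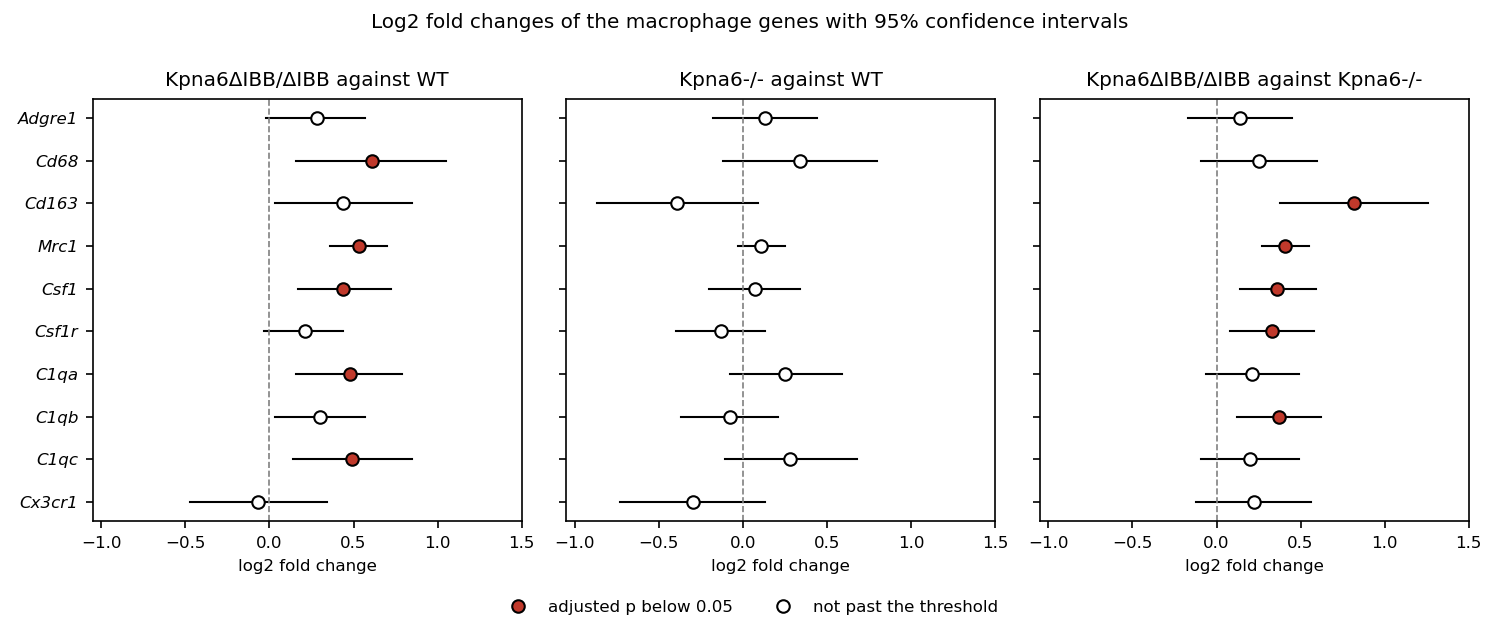
Log2 fold change of each macrophage gene (x axis) in the 3 comparisons, with 95% confidence intervals; filled points passed an adjusted p of 0.05. All intervals of *Kpna6*-/- against WT include 0, from *Cd163* at -0.39 to *Cd68* at 0.34.

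*Cd163* had the lowest of these values. It was at 1.96, 1.62 and 2.7 normalised CPM in *Kpna6*-/- testes, and the log2 difference from WT was -0.39 (95% CI -0.87 to 0.09, adjusted p = 0.45). *Mrc1* was at 41.2, 38.7 and 40.3 in *Kpna6*-/- testes, and its interval of -0.03 to 0.25 around 0.11 lies below the 0.53 measured in *Kpna6*ΔIBB/ΔIBB testes. *Cd68* was at 2.25, 2.11 and 2.48 normalised CPM (log2 difference from WT 0.34, 95% CI -0.12 to 0.80), an interval that still covers the value of the other line. The chains of C1q were at 6.81 to 9.09 (*C1qa*), 9.31 to 12 (*C1qb*) and 6.16 to 9.02 (*C1qc*) normalised CPM, with replicate 3 highest for each. *Adgre1* (4.56 to 6.17), *Csf1r* (8.91 to 12.3), *Csf1* (6.19 to 7.13) and *Cx3cr1* (3.59 to 5.36 normalised CPM) all overlapped WT. For groups that did not overlap and were higher, the share over all genes was 10%, and it was 0 of 10 here.

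The direct comparison of both lines tests whether their responses differ, since the comparisons with WT share the WT libraries. Against *Kpna6*-/-, 5 of the 10 genes were higher in *Kpna6*ΔIBB/ΔIBB testes: *Cd163*, *Mrc1*, *Csf1*, *Csf1r* and *C1qb*. Over all 18752 genes tested 30.3% passed and 13.5% were higher. The median log2 difference was 0.29, with 10 of 10 above 0. The 2 lists of 5 called genes share *Mrc1* and *Csf1*.

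*Cd163* differed most, at 3.52, 4.34 and 3.21 normalised CPM in *Kpna6*ΔIBB/ΔIBB against 1.96, 1.62 and 2.7 in *Kpna6*-/- testes, a fold of 1.77 (95% CI 1.3 to 2.4, adjusted p = 0.00911). It missed the threshold without *Kpna6*ΔIBB/ΔIBB replicate 2 (adjusted p = 0.0506). *Mrc1* was 1.33-fold higher (95% CI 1.2 to 1.47, adjusted p = 0.00066) and was called under all 15 alternatives. *Csf1* was 1.29-fold higher (95% CI 1.1 to 1.5, adjusted p = 0.0175), with 0.0754 without *Kpna6*ΔIBB/ΔIBB replicate 2 and 0.0706 without *Kpna6*-/- replicate 1. *C1qb* was 1.29-fold higher (95% CI 1.09 to 1.54, adjusted p = 0.0291), with 0.104 to 0.114 without *Kpna6*ΔIBB/ΔIBB replicate 1 or without *Kpna6*-/- replicate 1 or 2. *Csf1r* was 1.26-fold higher (95% CI 1.06 to 1.5, adjusted p = 0.0461) and was called in 2 of the 6 fits with a library left out, those without replicate 3 of either line. Values did not overlap for these 5 genes and for *Cd68* (log2 difference 0.25, adjusted p = 0.26), 6 of 10 against 21.4% of all genes. For *Adgre1*, *C1qa*, *C1qc* and *Cx3cr1* the intervals included 0, with log2 differences between 0.14 and 0.22.

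Ratios between genes within a library do not depend on scaling between libraries. Of 8 ratios, all but that of *Csf1* over *Csf1r* were formed over *Adgre1*. With 3 samples per group the smallest p of an exact permutation test is 0.1. Summed C1q over *Adgre1* was 4.14 ± 0.24 in WT, 4.28 ± 0.27 in *Kpna6*ΔIBB/ΔIBB testes and 4.14 ± 0.02 in those of *Kpna6*-/- mice on the log2 scale (SD, n = 3), and the groups overlapped. *Csf1* over *Adgre1* was 0.41, 0.48 and 0.57 in WT and 1.02, 0.88 and 0.64 in *Kpna6*ΔIBB/ΔIBB testes, higher by 0.36 without overlap (exact two-sided permutation p = 0.1, adjusted over 8 ratios 0.533). *Cd163* over *Adgre1* was -1.65, -2.06 and -1.62 in *Kpna6*-/- testes, below all WT values of -1.31, -0.71 and -1.35 (difference -0.65, exact p = 0.1, adjusted 0.8) and below all *Kpna6*ΔIBB/ΔIBB values of -0.91, -0.80 and -1.36 (exact p = 0.1, adjusted 0.6). Every other ratio overlapped between the groups in the 3 comparisons.

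**Figure D3:**
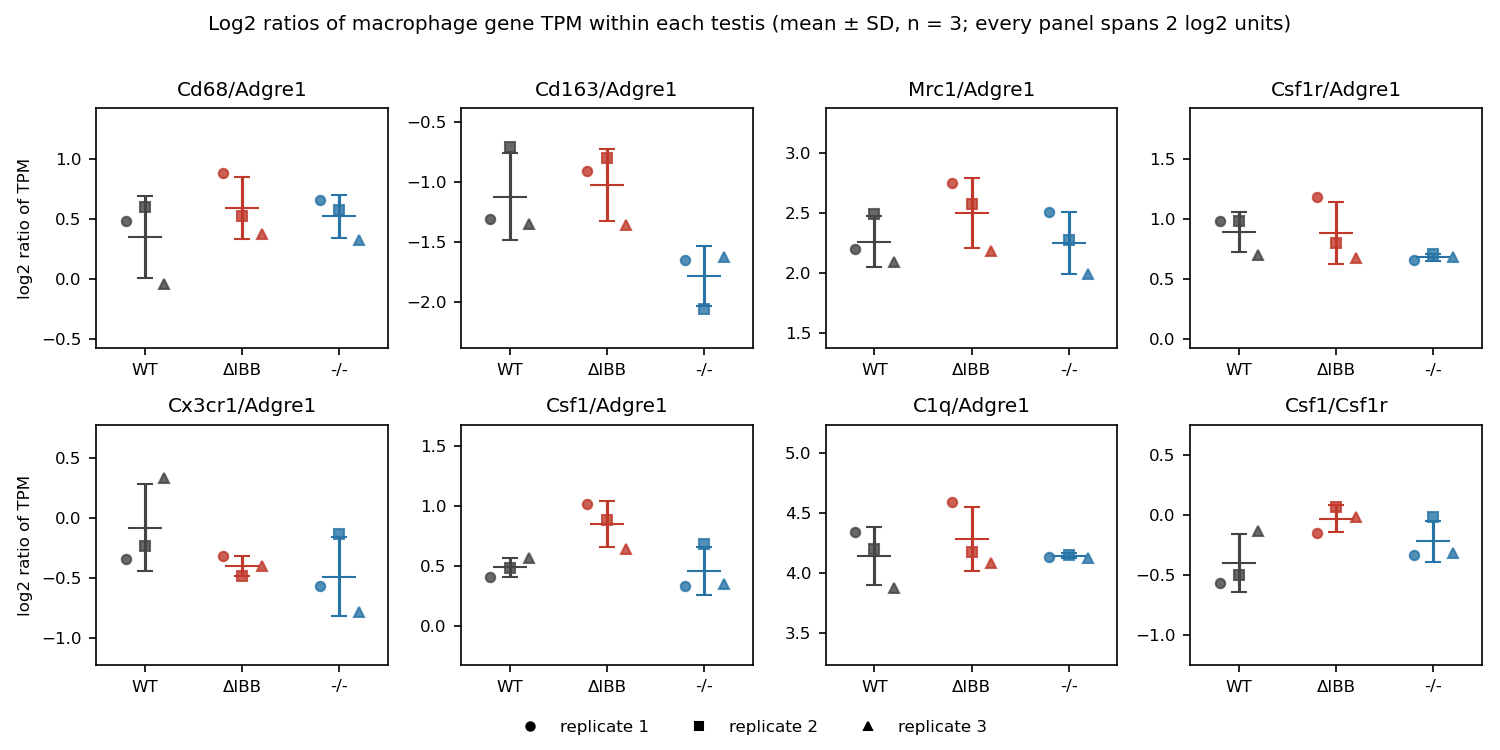
Log2 ratio of TPM within each testis (y axes all span the same range) for 8 pairs of macrophage genes; symbols are replicates, and bars give mean ± SD (n = 3). *Cd163* over *Adgre1* lies lower in all 3 *Kpna6*-/- testes than in the 6 others, and C1q over *Adgre1* lies between 3.87 and 4.59 in all 9.

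Transcripts are described without a test. The 10 genes had 25 transcripts in the files. For *Cd163*, the retained-intron transcript *Cd163*-203 was at 0.274 ± 0.101 TPM in WT, 0.251 ± 0.0347 in *Kpna6*ΔIBB/ΔIBB testes and 0.0731 ± 0.0341 in those of *Kpna6*-/- mice (SD, n = 3), and was below every WT value in *Kpna6*-/- testes (highest 0.112 against lowest 0.165). The main coding transcript *Cd163*-201 was at 0.517 ± 0.214, 0.741 ± 0.178 and 0.553 ± 0.132 in the same order, and its *Kpna6*-/- mean lay inside the WT range. A second coding transcript, *Cd163*-202, held 13.4% of the gene's TPM. It was at 0 to 0.308 TPM in WT, 0.0296 to 0.445 in *Kpna6*ΔIBB/ΔIBB and 0 to 1.09e-05 in *Kpna6*-/- testes, and it was listed at 0 in 4 of the 9 libraries. *Csf1r*-201 carried 84.4% of the gene's TPM and went from 2.65 ± 0.577 in WT to 4.18 ± 0.106 in *Kpna6*ΔIBB/ΔIBB testes, whereas *Csf1r*-202 was at 0.952 ± 0.179 and 0.525 ± 0.375. *Csf1* was spread over 7 transcripts, of which *Csf1*-201 held 43%, and *C1qa* and *C1qb* had 1 each. How kallisto divides reads between transcripts at levels near 1 TPM adds error that the spread of 3 samples shows only in part.

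In all, 21 other gene lists put these values in context. Of 30 other macrophage and myeloid genes, 29 were tested in *Kpna6*ΔIBB/ΔIBB against WT, where 8 rose, 2 fell and the median log2 fold change was 0.31. The 10 of 29 called are near the 36.6% of all genes called in this comparison. The pore-forming *Mpeg1* was at 20.3, 17.2 and 14.6 normalised CPM in WT and 34.5, 30.7 and 25.7 in *Kpna6*ΔIBB/ΔIBB testes (log2 fold change 0.80, adjusted p = 0.000622). The Fc receptor chain *Fcer1g* (0.78, adjusted p = 0.0129) and the lysosomal protease *Lgmn* (0.75, adjusted p = 3.94e-05) also rose. *Aif1*, the gene of IBA1, fell by 0.42 on the log2 scale (adjusted p = 1.83e-05), and the scavenger receptor *Msr1* fell by 0.41 (adjusted p = 0.0209). *Aif1* was at 481 to 629 TPM in all 9 testes, far above the other genes of that list and above the mean of 2.2 TPM of *Adgre1*. It made up most of the list's summed level (747 to 787 TPM in WT, 698 to 724 in *Kpna6*ΔIBB/ΔIBB). Which cells of the testis carry *Aif1* was not tested, so its fall cannot be read as one of macrophages. Of this list 0 of 28 passed with edgeR between *Kpna6*-/- and WT testes, 3 with an unadjusted p below 0.05.

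Of 15 tested genes of the CSF1 receptor signalling list 2 rose and 4 fell in *Kpna6*ΔIBB/ΔIBB testes, a count near the 36.6% of all genes. The list also holds *Csf3*, *Csf2ra*, *Csf2rb* and *Csf3r*, which belong to other growth factors. *Csf2ra*, a chain of the GM-CSF receptor, was at 5.4, 6.46 and 6.15 normalised CPM in WT and 9.69, 11.4 and 10.7 in *Kpna6*ΔIBB/ΔIBB testes (log2 fold change 0.83, adjusted p = 0.000226), and the kinase *Syk* rose by 1.03 (adjusted p = 0.00709). The phospholipase *Plcg2* fell by 0.67 (adjusted p = 0.000705). In *Kpna6*-/- testes *Plcg2* was the 1 gene of this list that passed, and it fell by 0.63 (adjusted p = 0.00768). *Csf2ra* was at 13, 12.2 and 6.8 normalised CPM there, above all WT values, with the same log2 fold change of 0.83 and an adjusted p of 0.0557. The direct comparison of the lines gave -0.01 for it (adjusted p = 0.965).

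Of 8 tested genes of the list of chemokines and their receptors, which also holds the proteases *Adam10* and *Adam17*, 2 rose and 1 fell. This is again near the 36.6% of all genes. *Cx3cl1*, which encodes fractalkine, the ligand of CX3CR1, went from 4.05, 3.95 and 3.93 normalised CPM in WT to 10.6, 7.11 and 9.09 in *Kpna6*ΔIBB/ΔIBB testes (log2 fold change 1.17, adjusted p = 0.000171). *Adam10*, a protease that releases it from the membrane, rose by 0.51 (adjusted p = 0.000411). The *Cx3cl1* groups did not overlap, in contrast to those of its receptor above. *Ccl5* fell by 1.19 (adjusted p = 0.0101) at low levels, 0.725 to 0.983 normalised CPM in WT and 0.346 to 0.383 in *Kpna6*ΔIBB/ΔIBB testes. Against *Kpna6*-/- testes *Cx3cl1* was higher by 0.86 (adjusted p = 0.000788), and *Ccr2*, the receptor of inflammatory monocytes, was lower in *Kpna6*ΔIBB/ΔIBB testes (log2 difference -0.56, adjusted p = 0.0425).

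Of 20 tested other complement genes 4 rose and 2 fell, with a median of 0.09, beside 36.6% called and 17.7% higher among all genes. The C1 inhibitor *Serping1* (0.47, adjusted p = 0.00219), *C1s1*, a protease of the C1 complex (0.32, adjusted p = 0.0263) and *Cfi*, which inactivates C3b (1.45, adjusted p = 0.00716), rose, while the membrane regulators *Cd46* (-0.70, adjusted p = 0.000185) and *Cd55* (-0.51, adjusted p = 0.00103) fell. *Cfi* was low, at 0.54 to 0.837 normalised CPM in WT and at 1.42, 2.8 and 1.29 in *Kpna6*ΔIBB/ΔIBB testes. Of 10 tested genes of haem and iron handling, 6 rose and none fell, beside the same 17.7% higher among all genes. Among them were *Trf*, transferrin, which Sertoli cells secrete (0.92, adjusted p = 0.00248), the receptor *Lrp1* (0.67, adjusted p = 1.51e-05) and *Hmox1*, haem oxygenase (0.61, adjusted p = 0.0142). Of 13 tested macrophage activation genes 2 rose and 4 fell, beside 36.6% of all genes called in either direction. *Il1b* was at 2.23, 2.01 and 2.33 normalised CPM in WT and 0.842, 1.1 and 0.755 in *Kpna6*ΔIBB/ΔIBB testes (log2 fold change -1.27, adjusted p = 0.00119). *Ccl17* (-1.21, adjusted p = 0.0256) and *Ccl22* (-0.58, adjusted p = 0.00603) fell as well, and *Tgfb1* (0.45, adjusted p = 0.00891) and *Il4ra* (0.42, adjusted p = 0.0219) rose. *Ccl17* was low, at 0.494 to 1.06 normalised CPM in WT and 0.283 to 0.383 in *Kpna6*ΔIBB/ΔIBB testes. None of these 3 lists had a gene past edgeR's threshold in *Kpna6*-/- against WT testes, where 1 of 19 complement, 5 of 10 haem and iron and 1 of 12 activation genes had an unadjusted p below 0.05.

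**Figure D4:**
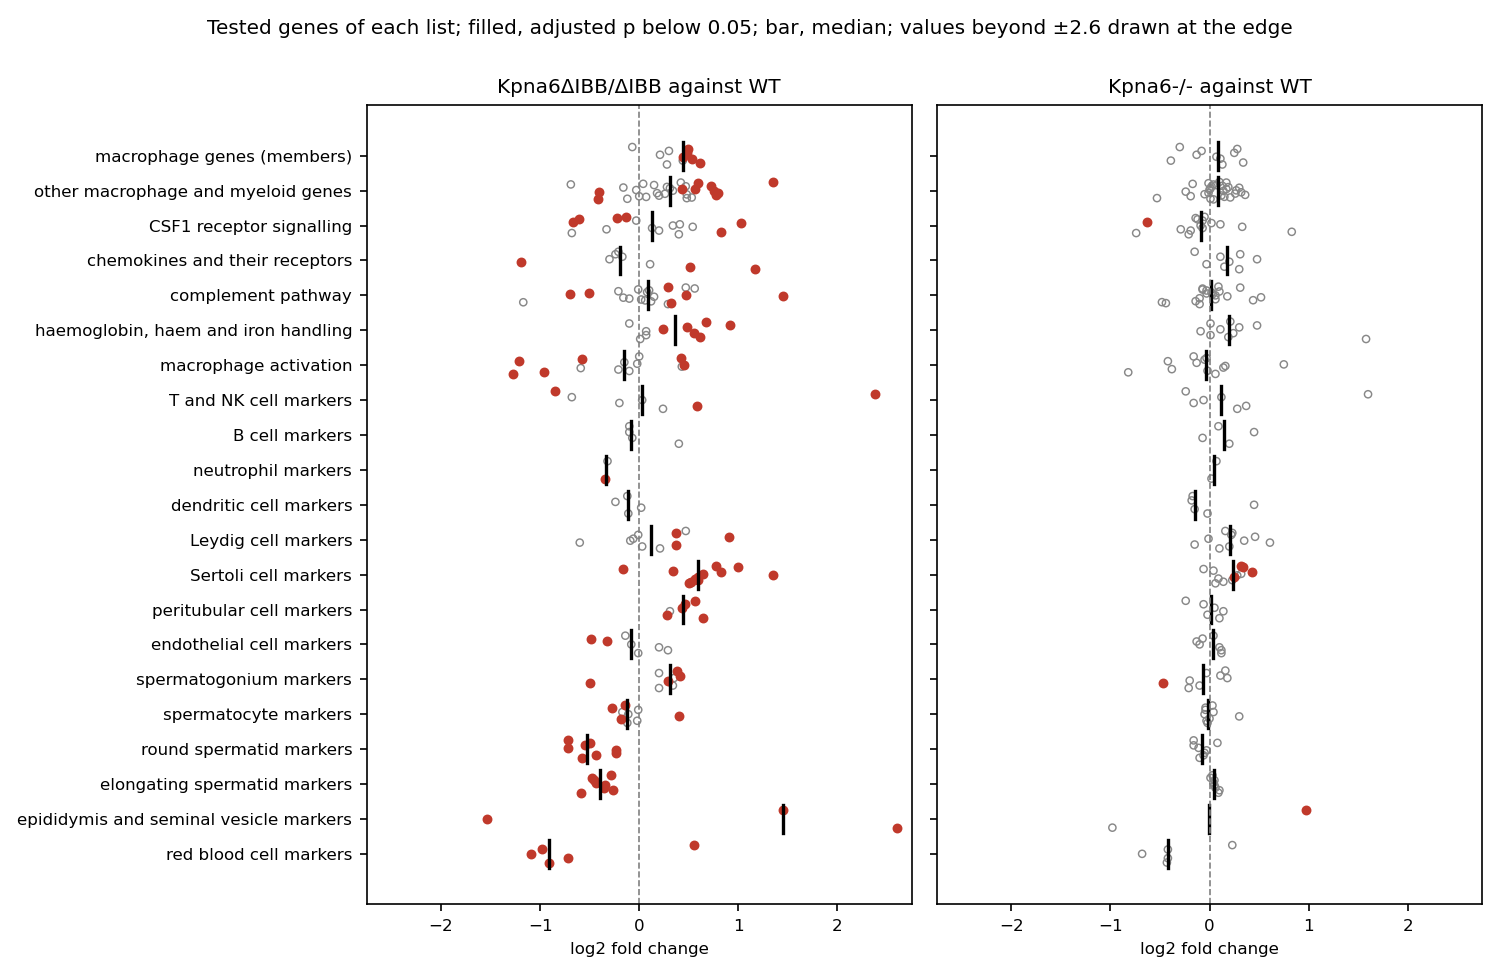
Log2 fold change (x axis) of the tested genes of each list in *Kpna6*ΔIBB/ΔIBB (left) and *Kpna6*-/- testes (right) against WT; filled points passed an adjusted p of 0.05, and bars are medians. On the left the macrophage genes have a median of 0.44, Sertoli cell markers 0.59 and elongating spermatid markers -0.40.

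Markers of other cell types moved in the same libraries. Over all 18797 genes tested in *Kpna6*ΔIBB/ΔIBB against WT testes, 36.6% were called, 3327 higher and 3547 lower, to set beside the counts below. In *Kpna6*ΔIBB/ΔIBB against WT testes all 8 round spermatid markers (median -0.52) and all 8 elongating spermatid markers (median -0.40) fell, and the summed elongating markers were at 57190 to 65430 TPM against 68686 to 78749 in WT. Sertoli cell markers rose in 11 of 12 and fell in 1 (median 0.59, summed 1664 to 1968 against 1039 to 1115 TPM), and peritubular markers rose in 5 of 6 (median 0.44, summed 96.5 to 103 against 59.9 to 65.4 TPM). Of the macrophages' neighbours, Leydig cell markers rose in 3 of 10 (median 0.12, summed 2000 to 2865 against 2001 to 3036 TPM) and endothelial markers fell in 2 of 7 (median -0.08). Both counts are near the 36.6% of all genes called. The median of the macrophage genes, 0.44, thus equalled that of the peritubular markers and lay below that of the Sertoli cell markers. The part of these shifts in the macrophage values was not tested. Spermatogonium markers rose in 3 and fell in 1 of 8, and spermatocyte markers rose in 1 and fell in 3 of 9. These counts also stand beside 36.6% of all genes called.

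Red blood cell markers went the other way. All 4 globin genes fell, and *Alas2* rose (median -0.91, summed 70.6 to 119 against 117 to 178 TPM). *Hbb-bs* was at 18.4, 33.8 and 26.6 TPM in *Kpna6*ΔIBB/ΔIBB and 55.1, 65.6 and 38 TPM in WT testes. Other leukocytes had few or low markers. T and NK cell markers had 2 higher and 1 lower of 7 tested, beside 36.6% of all genes called in either direction. The constant region *Trac* (2.38, adjusted p = 0.000918) and *Cd3d* (0.58, adjusted p = 0.0108) rose while *Trbc2* fell by 0.85 (adjusted p = 0.0024). *Trac* was low, at 0.202 to 0.255 normalised CPM in WT and 0.818 to 1.8 in *Kpna6*ΔIBB/ΔIBB testes. B cell (4 tested) and dendritic cell markers (4 tested) had 0 called with edgeR, at 1 and 0 with an unadjusted p below 0.05. Of 2 tested neutrophil markers 1 fell, *Cxcr2* by 0.35 (adjusted p = 0.0246), and no mast cell marker was abundant enough to be tested, with a summed level of 0.228 to 0.831 TPM over all libraries. Epididymis and seminal vesicle markers had 2 higher and 1 lower of 3 tested, beside the same 36.6%, with *Lcn5* at 0 throughout. Among the higher was *Crisp1* (log2 fold change 6.73, SE 1.88), whose groups overlapped. It was at 0.22, 1.92 and 77 TPM in *Kpna6*ΔIBB/ΔIBB testes, so the size of this change came from replicate 3.

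Between *Kpna6*-/- and WT testes 7 of the 185 tested genes of these lists passed, at a share of all genes of 1.6%. Of the 7, 4 were Sertoli cell markers, which rose (*Amhr2*, *Vim*, *Aard* and *Clu*, the last named after its values were seen), and their list had a median of 0.24. *Amhr2*, the receptor for anti-Müllerian hormone, rose by 0.43 (adjusted p = 0.000489). The others were *Plcg2*, *Gfra1* (-0.47, adjusted p = 0.0476) and *Svs5* (0.97, adjusted p = 0.0208). Round spermatid markers had 0 of 8 called with edgeR and 2 with an unadjusted p below 0.05, and elongating spermatid markers had 0 of 8 and 0, at medians of -0.08 and 0.05.

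The C1q genes lie side by side on chromosome 4, in GRCm38 at 136895917 to 136898803 (*C1qa*), 136889804 to 136893065 (*C1qc*) and 136880129 to 136886187 (*C1qb*). They are 7.21 to 7.23 Mb from *Kpna6*, and DNA next to a targeted gene can stay from the cells of origin through a backcross. Of 302 tested genes within 10 Mb of *Kpna6*, 42.4% (95% Wilson interval 36.9% to 48%, over genes, which are not independent) were called in *Kpna6*ΔIBB/ΔIBB against WT testes, beside 36.6% of all genes. In *Kpna6*-/- against WT testes it was 18 of 300, or 6% (3.83% to 9.28%), beside 1.6% of all genes. Within 1 Mb of the C1q genes, 13 of 32 tested genes were called in *Kpna6*ΔIBB/ΔIBB against WT (9 higher, 4 lower, median 0.10) and 1 of 32 in *Kpna6*-/- against WT testes. The other 7 macrophage genes lie on other chromosomes. The genes around them, those near *Cd163* included, were not examined in this way, so a regional shift there was not tested. *Mrc1* is at chr2:14229392-14332057 (29 exon blocks), *Csf1* at chr3:107741048-107760469 (12), *Cd163* at chr6:124304656-124330527 (16), *Cx3cr1* at chr9:119901616-120069879 (4), *Cd68* at chr11:69664213-69666153 (6), *Adgre1* at chr17:57358691-57483527 (22) and *Csf1r* at chr18:61100598-61132149 (24). The values describe their spliced transcripts as a whole. Of these 7, *Cd68*, *Mrc1* and *Csf1* were called in *Kpna6*ΔIBB/ΔIBB testes.

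**Figure D5:**
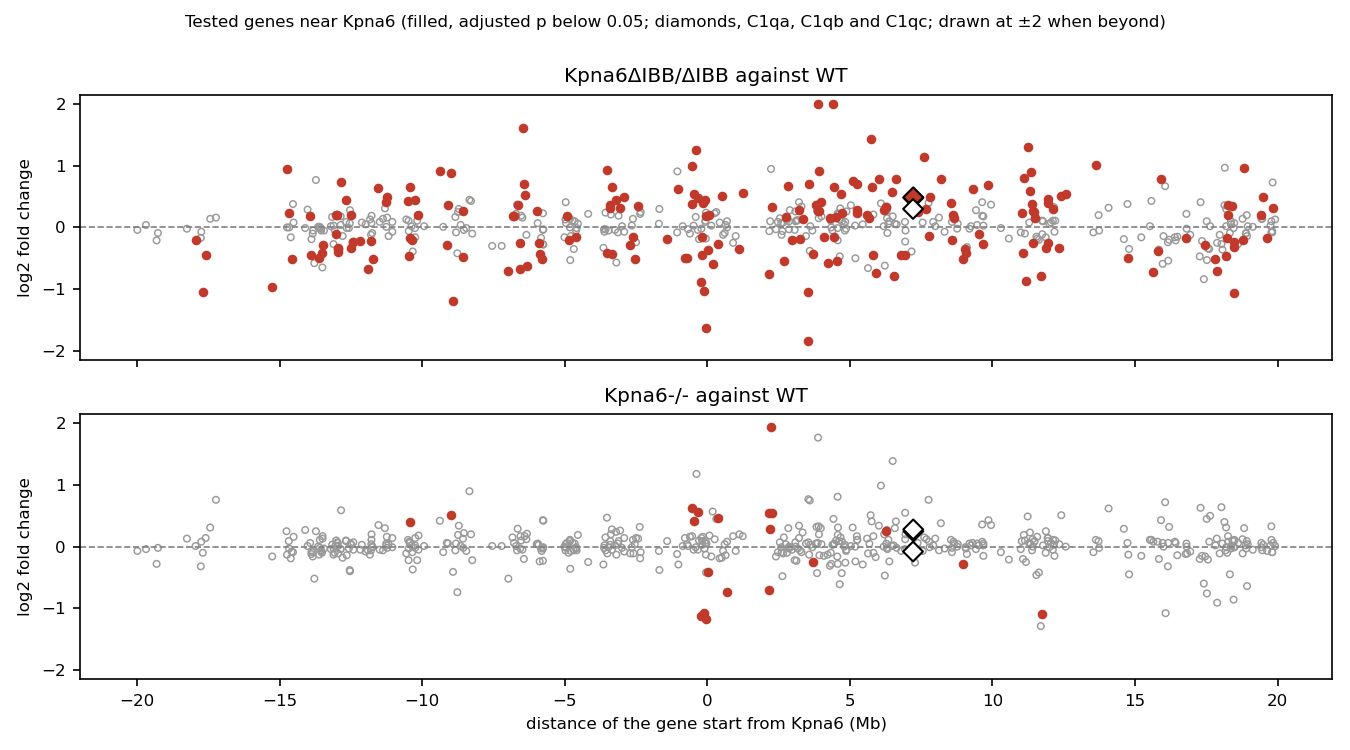
Log2 fold change (y axis) of tested genes against the distance of their start from *Kpna6* in Mb (x axis), for *Kpna6*ΔIBB/ΔIBB (top) and *Kpna6*-/- testes (bottom) against WT; filled points passed an adjusted p of 0.05, and diamonds are the C1q genes. The diamonds lie at 0.30 to 0.49 in the top panel, where *C1qa* and *C1qc* passed, and at -0.08 to 0.28 in the bottom panel, where none passed.

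The genes most like the 10 over the 9 libraries were sought among 16701 others by the correlation of log2 values with the mean standardised value of the 10 genes, as a description in which all points share the same libraries. The mean standardised value was 0.13, -0.84 and -0.78 in WT, 0.93, 0.81 and 0.79 in *Kpna6*ΔIBB/ΔIBB testes and -0.90, -0.43 and 0.28 in those of *Kpna6*-/- mice. The closest were *Slc35e1* (r = 0.971), *Rbfa* (0.970), *Anxa5*, *Igf1* and *Gm40* (each 0.963), *Pdpn* and *Trp53i11* (each 0.961), *Lman1* (0.960), *Nptxr* and *Samhd1* (each 0.950). *Anxa5* encodes a protein that binds phosphatidylserine, *Igf1* the insulin-like growth factor that Leydig cells and macrophages make, and *Samhd1* a dNTP hydrolase of myeloid cells. Most of the list has no role given here, and whether it holds macrophage genes was not tested. *Gm40* (adjusted p = 0.143) and *Lman1* (adjusted p = 0.0545) were not called in *Kpna6*ΔIBB/ΔIBB against WT testes. *Igf1* was higher there by 0.45 on counts, but its mean TPM was 4.39 against 4.7 in WT. *Pdpn*, podoplanin, had the highest fold change of them in *Kpna6*ΔIBB/ΔIBB against WT testes (log2 fold change 1.01, adjusted p = 0.000958).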

How the data were processed

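Whole-testis samples, 3 each for the WT, *Kpna6*ΔIBB/ΔIBB and *Kpna6*-/- groups, were measured by poly(A) RNA sequencing with paired reads of 150 bases. The authors mapped reads with kallisto (version 0.45 in the submitters' processing notes) to mm10 transcripts. They deposited an estimated count per transcript, which is not normalized between samples, and TPM, which have 1 common total per library. Which release of the transcripts was used is not given in the sources used here.

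Of 96626 transcripts, 95301 were assigned to genes of GENCODE M21 (GRCm38), and 1325 without an entry were left out. Estimated counts and TPM were summed per gene. After rounding, the filterByExpr filter and TMM scaling, edgeR 4.0.16 (R 4.3.3) compared groups by its quasi-likelihood test in the 6 samples concerned. A gene was called at a Benjamini-Hochberg adjusted p below 0.05 over all genes tested. Confidence intervals are at 95%. The likelihood ratio test of sleuth used in the study was not used here. Log2 ratios of TPM were compared by exact two-sided permutation tests over 20 splits.

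The macrophage genes, the 21 other lists and the tests were chosen with earlier results of these data known. Named from each list and comparison were up to 3 called genes in either direction, those of largest log2 change whose groups did not overlap and of which 1 group averaged 1 TPM or more. Genes outside that rule are said to be so where they appear, and *Crisp1*, *Adam7*, *Hmgxb3* and *Lcn5* were chosen after their values were seen. The 10 genes most like the macrophage genes were ranked by Pearson correlation of log2(CPM + 0.5) over the 9 samples, among genes with a mean of at least 1 TPM.

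The alternatives were DESeq2 1.42.0, RLE or library-size scaling, a block for the replicate number, 1 fit over all 9 samples, no filter, counts from length-scaled TPM, limma 3.58.1 on log2(TPM + 1) or log2(TPM + 0.1), and fits without 1 library at a time. The edgeR, limma and DESeq2 steps were tested on simulated data. Python 3.11.15 with pandas 2.3.3 and numpy 2.4.6 was used for tables. Libraries of 1 group differed by 3.28 to 6.72 times the counting noise expected of 1 library deposited again, so all were kept as separate samples. Each library held 24859751 to 31484692 estimated counts on genes, and *Cd68*, with 41 to 86 counts per library, carries the most counting error.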

Additional observations from a re-analysis of the deposited data

Results flagged for a closer look

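Of the 10 macrophage genes, 5 differed between the mutant lines in the direct test of one line against the other. The log2 differences of *Kpna6*ΔIBB/ΔIBB against *Kpna6*-/- testes were 0.82 for *Cd163*, 0.41 for *Mrc1*, 0.36 for *Csf1*, 0.33 for *Csf1r* and 0.37 for *C1qb* (edgeR's quasi-likelihood test, adjusted p = 0.00911, 0.00066, 0.0175, 0.0461 and 0.0291), and all 3 *Kpna6*ΔIBB/ΔIBB testes lay above all 3 *Kpna6*-/- testes for each. Of all genes tested, 30.3% differed between the lines.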

How the results depend on the processing

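Only *Mrc1* was called under all 15 alternatives in both comparisons of *Kpna6*ΔIBB/ΔIBB testes, and no macrophage gene was called under any in *Kpna6*-/- against WT testes (limma left *Cd163* untested there). Against WT, library size only gave 9 and length-scaled TPM counts 3 called genes where the report has 5, and leaving out single libraries gave 2 to 7; against *Kpna6*-/- testes these were 3 for length-scaled TPM counts and 2 to 6 without a library. With the replicate number as a block, 7 were called against WT (*Cd163* and *C1qb* were added) and 5 between the lines. Replicates with the same number did not deviate together (correlations of -0.04 to 0.09, and 3 of 9 were highest with their own number), so the numbers were not used to pair samples. Signs turned for genes near 0. *Cx3cr1* against WT was 0.03 with library size only, 0.04 and 0.07 with limma at a pseudocount of 1 and 0.1, and -0.22 to 0.18 without a library. Between *Kpna6*-/- and WT testes, *Csf1* ranged from -0.05 to 0.14 and *C1qb* from -0.21 to 0.06 without a library.

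Among log2 ratios over *Adgre1*, leaving out libraries gave -0.01 to 0.31 for *Cd163*, -0.15 to 0.10 for *Csf1r* and -0.01 to 0.25 for C1q in *Kpna6*ΔIBB/ΔIBB against WT testes. For *Kpna6*-/- against WT it gave -0.02 to 0.30 for *Cd68*, -0.13 to 0.13 for *Mrc1*, -0.14 to 0.03 for *Csf1* and -0.13 to 0.10 for C1q, which was 0.01 from estimated counts. Between the lines it gave -0.07 to 0.18 for *Cd68*, -0.05 to 0.28 for *Cx3cr1* and -0.01 to 0.24 for C1q. None of these ratios could pass a threshold in this design.

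The other lists had 7 called genes between *Kpna6*-/- and WT testes, 14 without a filter, 2 with length-scaled TPM counts, 2 with limma at either pseudocount and 3 to 15 without a library, 15 being without WT replicate 1. All genes called there were 299 with edgeR, 477 with DESeq2, 624 without a filter, 70 with length-scaled TPM counts, 30 and 25 with limma, and 92 to 518 without a library. The share called near *Kpna6* in that comparison was 8.72% within 5 Mb, 6% within 10 Mb and 3.8% within 20 Mb. The cause of these shifts was not tested. All macrophage genes but *Mrc1* had at most 403 counts in a library, and with 3 samples per group this limits which changes could be seen.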
